A study of Homo sapiens with 9 samples.

Results

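The expression of 9 genes of the p53 pathway was followed in libraries described as HEK293T cells that had been transfected with human protamines. The genes were MDM2, MDM4, BBC3, PMAIP1, GADD45A, SESN1, ZMAT3, TP53INP1 and FAS. They were chosen by name, as a list of p53 pathway genes, and not by their values. All 9 symbols had an Ensembl identifier in the expression table, which listed 57338 genes. HEK293T is a human embryonic kidney line that carries the SV40 large T antigen, and the authors give this line for all 3 groups. The libraries labelled hPRM1 had 7 of 10 HEK293T markers at 0, as described below. The empty vector expressed EGFP only, and the plasmids of the other groups expressed hPRM1 or hPRM2 joined to EGFP. Protamines are small basic proteins that package DNA in sperm. Live cells with a high EGFP signal were sorted 3 days after transfection, and their polyadenylated RNA was sequenced from its 3′ ends, with 3 libraries per group. Nothing in the labels says whether the 3 libraries of a group came from separate transfections, so the p-values measure the spread between these libraries, which may be technical.

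p53 is a transcription factor that is stabilized by DNA damage and other stresses. It then binds to paired ten-base motifs near its target genes, and the products of these genes arrest the cell cycle, repair DNA or start apoptosis. MDM2 marks p53 for degradation and is itself a p53 target, so the pair forms a feedback loop, and MDM4, a relative of MDM2, blocks the activating domain of p53. Large T antigen binds to p53 and inhibits it, which is the background against which all values from this line are read.

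The p53 motif can be seen in the promoters of several of the 9 genes. Promoter windows of 300 bases, from 250 before to 50 after a transcription start, were taken from RefSeq (GRCh38.p14) and searched for the p53 consensus of 20 bases on both strands. The core C and G of each ten-base unit had to be present and up to 3 other mismatches were allowed. Of the 9 genes, 7 had at least 1 window, and GADD45A and TP53INP1 had none in the table. Sites were found in 4 genes, and the windows of MDM4, ZMAT3 and BBC3 held no match. Over all promoters, 392 of 35116 windows held a match (1.12%), against 5 of the 15 windows of these genes, in which the same MDM2 site counts in a pair of overlapping windows. The threshold was set with known sites of these genes in mind, so the counts are a description. The 4 sites are shown because they are the stretches through which p53 could act on the genes described here. Capitals mark the 20 bases of the match, and 5 bases are shown on each side.
MDM2: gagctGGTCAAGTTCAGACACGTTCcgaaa
FAS: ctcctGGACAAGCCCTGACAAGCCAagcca
SESN1: cgtctGGACAAGTCTCCACAAGTCAgaaat
PMAIP1: gtcggGAGCGTGTCCGGGCAGGTCGcgctc

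The MDM2 match lay at chr12:68808923-68808942 on the plus strand, 94 bases upstream of a start, with 2 mismatches. It overlapped no exon in GENCODE 29 and was spanned by 7 transcripts, so it was intronic. The FAS match lay at chr10:88991309-88991328 on the plus strand, 122 bases upstream of a start, with 2 mismatches, and overlapped 2 annotated exons. In SESN1 the match was at chr6:109009018-109009037 on the minus strand, 49 bases upstream of a start that lies inside the longer gene model, with 3 mismatches and no exon overlap. The PMAIP1 match, at chr18:59899811-59899830 on the plus strand, was 185 bases upstream of the start, had 3 mismatches and fell outside annotated transcripts. A match describes the letters only, and no binding was measured.

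The libraries differed in depth and in what cells they resembled. Reads on genes, estimated from the spacing of low values, were 7900000 to 10780000 for the empty vector, 4190000 to 5850000 for the libraries labelled hPRM1 and 1270000 to 2650000 for hPRM2. At the same RPKM of a gene, the hPRM2 values therefore have the largest counting error. PRM2 reached 36130 to 71224 RPKM in hPRM2 and was listed at 0 in the other 6 libraries, whereas PRM1 was listed at 0 in all 9, including those labelled hPRM1. Of 10 genes typical of HEK293T, among them LIN28B, TUBB2B and KRT8, 7 were at 0 in all 3 libraries labelled hPRM1. Their summed level there was 0.652 to 2.26 RPKM, against 359 to 418 RPKM with the empty vector and 429 to 654 RPKM with hPRM2. KRT8 and LHX1 carried much of the hPRM2 sum, with means of 179 and 175 RPKM against 21.4 and 18.3 RPKM in the empty vector. The mean of HOXA9 was also higher in hPRM2, and those of the other HEK293T markers were lower. In hPRM2, 7 of the 10 reached 1 RPKM in all 3 libraries, against all 10 with the empty vector. In the libraries labelled hPRM1, blood cell markers stood in place of the HEK293T markers. All 7 red cell markers, 7 neutrophil and monocyte markers and 7 lymphocyte markers were above 1 RPKM in every library labelled hPRM1. Red cell markers had by far the largest sum, 2060240 to 2266410 RPKM there, against at most 18.2 RPKM in the other 6 libraries. The lymphocyte sum was 501 to 569 RPKM there and 0 in the other 6 libraries, and the neutrophil and monocyte sum was 5609 to 6449 RPKM against at most 5.41 RPKM. Platelet markers summed to 312 to 544 RPKM there, against at most 13.5 RPKM. These libraries are called "labelled hPRM1" throughout, and every direction given for them rests on that label. Their library names in the labels carry numbers that do not run on from those of the other 6 libraries, which follow each other. Library numbering, the content of cells and the condition cannot be told apart. RPKM divides by the library total, so the red cell markers enter the scaling of every value in the libraries labelled hPRM1. The part that the blood cell markers play in any result was not tested. In all bulk libraries, fewer cells of a type and less RNA per cell cannot be told apart.

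In the empty vector, the p53 pathway genes fell into a higher and a lower set. On the RPKM scale, which divides by gene length, BBC3 was highest with 95.9 ± 12.3 RPKM (SD, n = 3 here and for all means below). PMAIP1 followed with 78.2 ± 20.5, GADD45A with 65.9 ± 28.5 and MDM2 with 58.7 ± 25.1 RPKM, and each overlapped its neighbor in this order. MDM2 was separated from the next gene, MDM4, with 12.4 ± 5.31 RPKM. SESN1 had 7.73 ± 2.47, ZMAT3 5.86 ± 1.41, FAS 3.23 ± 2.61 and TP53INP1 1.12 ± 0.193 RPKM, again with overlap between neighbors. In hPRM2 the order was MDM2, PMAIP1, GADD45A, BBC3, MDM4, SESN1, ZMAT3, FAS and TP53INP1, and all neighbors overlapped. The libraries labelled hPRM1 had BBC3 first, apart from MDM4, and ended with PMAIP1, SESN1 and FAS, which were between 0.811 and 1.68 RPKM. The gene lengths the authors used are not given in the sources used here, and reads from 3′ ends do not grow with length, so the order depends on those lengths.

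**Figure D1:**
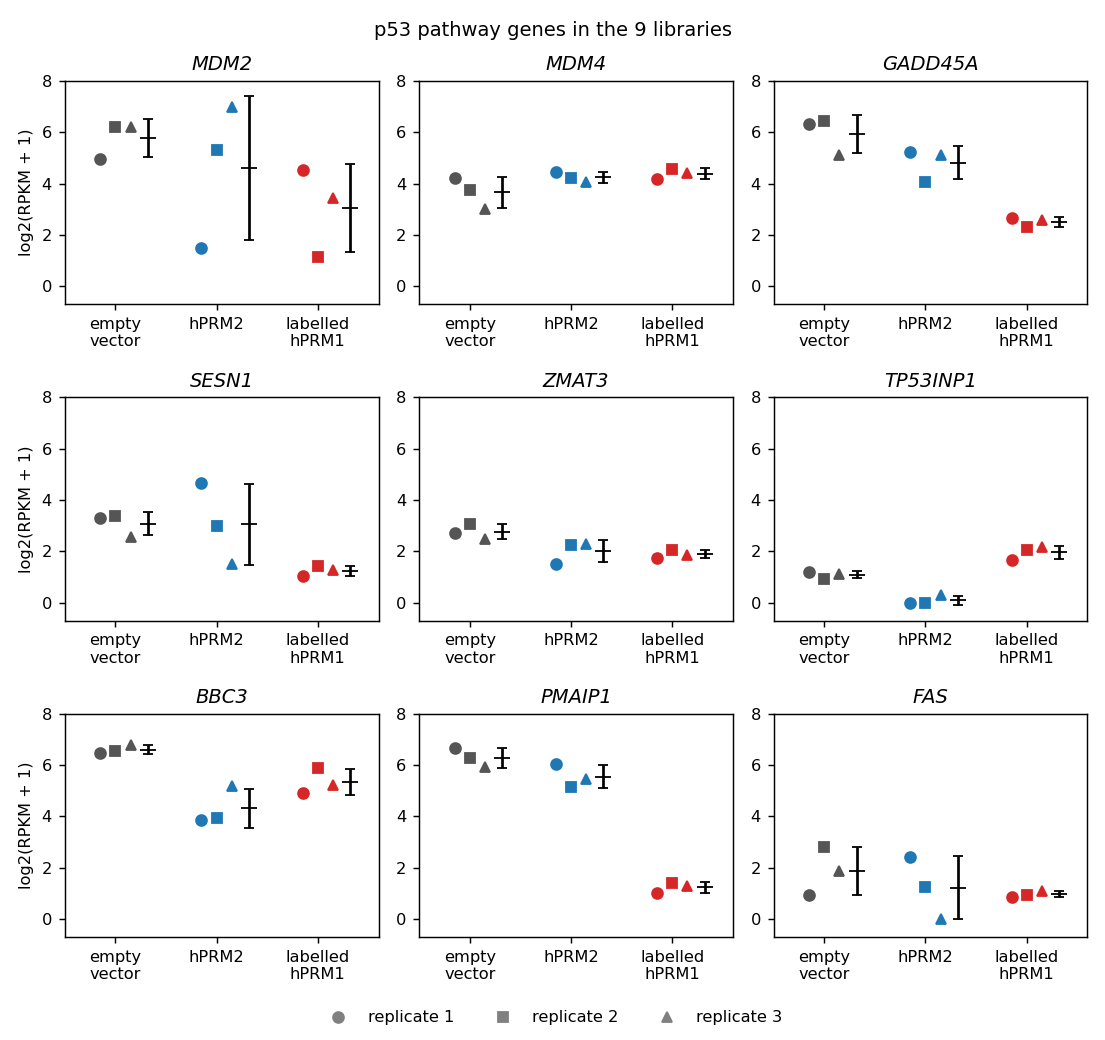
The plot shows the level of each p53 pathway gene in the 9 libraries as log2(RPKM + 1), with 1 panel per gene, 1 symbol per replicate and the mean ± SD (n = 3) beside each group. MDM2 spreads from 1.86 to 126.7 RPKM within hPRM2, whereas PMAIP1 and GADD45A in the libraries labelled hPRM1 lie in a narrow range below all other libraries.

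The first comparison asked whether hPRM2 changed the p53 pathway genes. None of the 8 that passed the filter on low values was called (limma, adjusted p at most 0.05 by Benjamini-Hochberg and at least a 2-fold change), against 2.74% of all 13126 tested genes. At an unadjusted p under 0.05 there was 1, BBC3, against 3351 of all tested genes. A per-gene test with unequal variances called 0, as it did over all tested genes. BBC3 came closest, at a log2 fold change of -2.27 (SE, the standard error, 0.47, and adjusted p = 0.0553). Of the 9 genes, 3 had hPRM2 libraries that all lay below the empty vector (BBC3, ZMAT3 and TP53INP1) and 0 had libraries that all lay above. Over all tested genes, these shares were 29.9% lower and 6.01% higher, so 3 of 9 is near the background. The median log2 fold change was -0.73 for the 8 genes and -0.72 for all genes tested.

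The second comparison set the libraries labelled hPRM1 against the empty vector. In the deposited scaling, 5 of the 9 genes fell, namely PMAIP1, GADD45A, MDM2, SESN1 and BBC3, and 0 rose. Among all 13588 tested genes, 75.4% were called, 62.5% lower and 12.9% higher, so a share of 5 in 9 is near the background. The libraries of the groups did not overlap for 6 genes that were lower (background 66.4%). TP53INP1 lay apart on the higher side, as did 14.5% of all tested genes, and is given as a description only. The median of the 9 genes was -1.25 on the log2 scale and that of all tested genes -1.72. Median-of-ratios scaling moved the median of all genes to -0.12. PMAIP1 and GADD45A were then called lower (background 28.9%) and MDM4 higher (background 28.8%). TP53INP1 also passed the threshold on the higher side, as a description. Quantile normalization (median -0.30) gave the same calls, against 32.3% of all genes lower and 25.6% higher. TP53INP1 passed the filter on low values only with the libraries labelled hPRM1, where it is high. Its differences in this comparison are therefore a description and are not counted as a result, though the total and the median of the 9 genes include it. Both comparisons use the same 3 empty vector libraries.

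**Figure D2:**
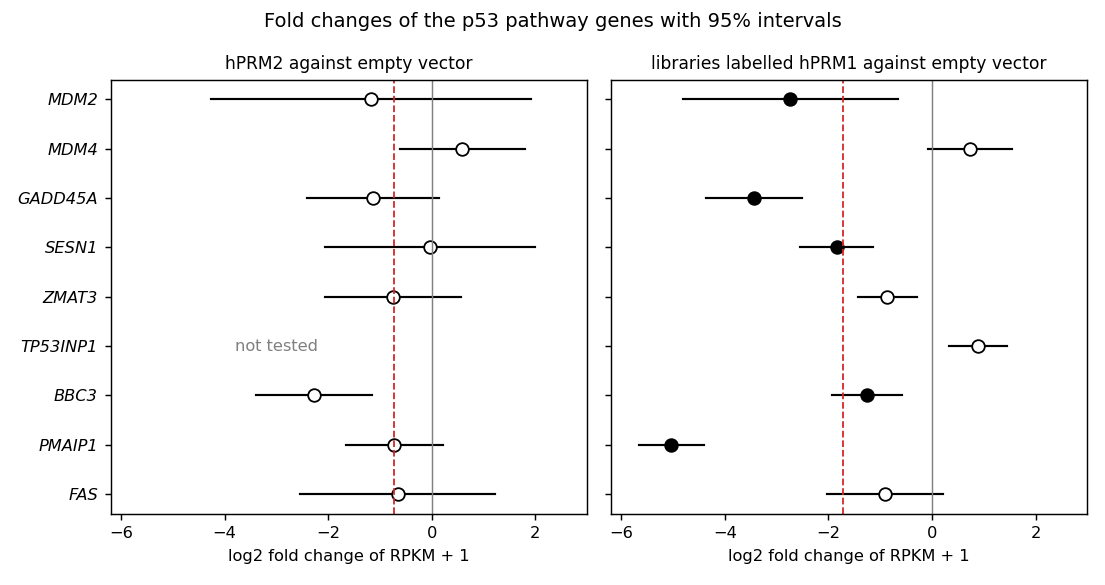
The plot shows the log2 fold change of RPKM + 1 against the empty vector for each p53 pathway gene with its 95% interval from limma, for hPRM2 on the left and the libraries labelled hPRM1 on the right. Filled points were called, the dashed line is the median of all tested genes (-0.72 and -1.72), and TP53INP1 was not tested in hPRM2. On the left no point is filled, and on the right 5 are.

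Among the regulators of p53, MDM2 (ENSG00000135679, chromosome 12, 68808176 to 68850686, GENCODE 29 on GRCh38) spread widely within groups. The empty vector replicates 1, 2 and 3 had 29.8, 72.9 and 73.5 RPKM, and hPRM2 had 1.86, 39.3 and 126.7 RPKM. The libraries labelled hPRM1 had 22.3, 1.23 and 10.02 RPKM. In hPRM2 the values lay on both sides of the empty vector, with replicate 1 below and replicate 3 above all of its libraries, whereas those labelled hPRM1 were all below it. The SD on the log2 scale was 2.81 within hPRM2, against 0.910 for the median gene, and 1.73 within the libraries labelled hPRM1, against 0.272. The log2 fold change in hPRM2 was -1.18 (95% interval -4.26 to 1.91, adjusted p = 0.578 by limma), and without hPRM2 replicate 1 it was 0.37. In the libraries labelled hPRM1, MDM2 fell by 2.74 on the log2 scale (SE 0.87, adjusted p = 0.0233 by limma). This call was lost without empty vector replicate 2 (adjusted p = 0.0708) or replicate 3 (adjusted p = 0.0705), under both other scalings, in the fit of all 9 libraries (adjusted p = 0.107) and in the per-gene test (adjusted p = 0.122). GENCODE 29 lists 34 MDM2 transcripts, from 213 to 12633 bases, and an RPKM of 1.23 stands for at most 63.7 reads if the longest is taken.

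MDM4 (ENSG00000198625, chromosome 1, 204516379 to 204558120), which binds p53 without marking it for degradation, was the steadier of the pair. The empty vector had 17.7, 12.4 and 7.09 RPKM, and hPRM2 had 21.1, 17.5 and 15.7 RPKM. The libraries labelled hPRM1 had 17.1, 23.1 and 20.1 RPKM. Each group overlapped the empty vector, through its replicate 1. The log2 fold change was 0.59 in hPRM2 (95% interval -0.62 to 1.79, adjusted p = 0.477 by limma) and 0.73 in the libraries labelled hPRM1 (95% interval -0.08 to 1.54, adjusted p = 0.0855 by limma). In the latter it was 2.74 after median-of-ratios scaling and 2.38 after quantile normalization, and both were called, as was 1.01 without empty vector replicate 1 (adjusted p = 0.0273). The ratio of MDM2 to MDM4 on the RPKM scale was 1.68, 5.89 and 10.4 with the empty vector and 0.0878, 2.24 and 8.05 in hPRM2. It was 1.30, 0.0532 and 0.498 in the libraries labelled hPRM1, all below the empty vector.

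Of the genes for growth arrest and stress response, GADD45A (ENSG00000116717, chromosome 1, 67685061 to 67688338), a small protein that binds PCNA and p21, showed the clearest difference. The empty vector had 78.6, 85.9 and 33.3 RPKM, hPRM2 had 37.1, 15.8 and 34.2 RPKM and the libraries labelled hPRM1 had 5.26, 3.94 and 4.99 RPKM. Empty vector replicate 3 lay within the range of hPRM2, and the libraries labelled hPRM1 lay below the other 6. The log2 fold change in hPRM2 was -1.13 (95% interval -2.41 to 0.15, adjusted p = 0.239 by limma). In the libraries labelled hPRM1, GADD45A fell by 3.44 (SE 0.38, adjusted p = 0.000190 by limma), and the mean RPKM was 13.9-fold lower. It was called lower in all 16 alternatives run for this comparison, with log2 fold changes of -3.87 to -1.42.

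SESN1 (ENSG00000080546, chromosome 6, 108986437 to 109094819) encodes a sestrin, which restrains mTORC1 under stress. It had 8.86, 9.43 and 4.89 RPKM with the empty vector, 24.1, 6.95 and 1.86 RPKM in hPRM2 and 1.03, 1.68 and 1.41 RPKM in the libraries labelled hPRM1. The hPRM2 values spread to both sides of the empty vector, and replicate 1, the lowest for MDM2, was the highest for SESN1. The last group lay below the other 6 libraries. In hPRM2 the log2 fold change was -0.03 (95% interval -2.06 to 2.001, adjusted p = 0.984 by limma). SESN1 fell by 1.84 in the libraries labelled hPRM1 (SE 0.29, adjusted p = 0.00102 by limma), but was not called after median-of-ratios scaling (-0.21), after quantile normalization (-0.36) or with a pseudocount of 5 (-0.98).

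ZMAT3 (ENSG00000172667, chromosome 3, 179017223 to 179072279), an RNA-binding zinc finger protein, had 5.62, 7.37 and 4.59 RPKM in the empty vector. The level was 1.85, 3.76 and 3.87 RPKM in hPRM2 and 2.35, 3.16 and 2.67 RPKM in the libraries labelled hPRM1. Every library of both groups was below the lowest empty vector library. The log2 fold changes, -0.74 in hPRM2 (SE 0.56, adjusted p = 0.417 by limma) and -0.87 in the libraries labelled hPRM1 (SE 0.24, adjusted p = 0.0129 by limma), were under a 2-fold change. Without empty vector replicate 3, the second was -1.003 and was called (adjusted p = 0.00994), as was -1.06 with a pseudocount of 0.1. It turned to 0.87 after median-of-ratios scaling and to 0.66 after quantile normalization.

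TP53INP1 (ENSG00000164938), a nuclear protein that takes part in p53-dependent cell death and in autophagy, was the lowest of the 9 genes in the empty vector, at 1.29, 0.913 and 1.17 RPKM. It was listed at 0, 0 and 0.231 RPKM in hPRM2 and at 2.19, 3.18 and 3.45 RPKM in the libraries labelled hPRM1. The 3 groups did not overlap, with hPRM2 lowest and the libraries labelled hPRM1 highest. At the mean level of the empty vector, the depth of hPRM2 replicates 1, 2 and 3 would give about 16.1, 7.70 and 9.76 reads. The value of replicate 3 stands for 2.01 reads, and a listed 0 allows up to 3. The gene did not pass the filter on low values for hPRM2. Without the filter its log2 fold change was -0.98 (limma adjusted p = 0.270), a value that depends on the pseudocount. In the libraries labelled hPRM1 it was 0.88 (SE 0.23, adjusted p = 0.0112 by limma), under a 2-fold change. It was called higher with 2.21 under both other scalings, with 1.30 at a pseudocount of 0.1, and with 1.02 without hPRM1 replicate 1 (adjusted p = 0.0117). These calls are a description, since the gene passed the filter only with the libraries labelled hPRM1.

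Among the genes for apoptosis, BBC3 (ENSG00000105327, chromosome 19, 47220822 to 47232766) encodes PUMA, a BH3-only protein that frees BAX and BAK to permeabilize mitochondria. It had 86.5, 91.4 and 110 RPKM in the empty vector, the tightest values of the higher set. In hPRM2 it had 13.3, 14.2 and 35.4 RPKM and in the libraries labelled hPRM1 29.1, 57.6 and 36.4 RPKM. Both groups lay below the empty vector without overlap, and the mean was 4.57-fold lower in hPRM2 and 2.34-fold lower in the libraries labelled hPRM1. These hPRM2 values stand for at most 28.5 to 90.8 reads. The log2 fold change in hPRM2 was -2.27 (95% interval -3.38 to -1.16, adjusted p = 0.0553 by limma), which misses the threshold. It was called by limma when all 9 libraries were fitted together (adjusted p = 0.0118) and without hPRM2 replicate 1 (-2.04, adjusted p = 0.0331). Those settings called 1618 and 1619 of all 13126 genes lower, against 180 in the main fit. The fit of all 9 shares its error estimate with the libraries labelled hPRM1, where the median gene had an SD of 0.272 on the log2 scale, against 0.910 in hPRM2. Over the 16 alternatives the adjusted p of BBC3 ran from 0.0118 to 0.255. In the libraries labelled hPRM1, BBC3 fell by 1.25 (SE 0.28, adjusted p = 0.00518 by limma), but was at 0.90 after median-of-ratios scaling and 0.48 after quantile normalization, neither called, and missed the threshold in the per-gene test (adjusted p = 0.0518).

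PMAIP1 (ENSG00000141682, chromosome 18, 59899948 to 59904306) encodes NOXA, a BH3-only protein that neutralizes MCL1. The empty vector had 99.8, 75.6 and 59.1 RPKM and hPRM2 had 64.2, 34.7 and 43.3 RPKM, which overlapped through hPRM2 replicate 1. The libraries labelled hPRM1 had 1.004, 1.68 and 1.46 RPKM, at most 9.99 to 12.98 reads, far below the other 6. In hPRM2 the log2 fold change was -0.72 (95% interval -1.66 to 0.21, adjusted p = 0.289 by limma), the same as the median gene. In the libraries labelled hPRM1, PMAIP1 fell by 5.03 (SE 0.26, adjusted p = 8.94e-06 by limma), and its mean RPKM was 56.6-fold lower. It was called lower in all 16 alternatives run for this comparison, with log2 fold changes of -5.72 to -3.23.

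FAS (ENSG00000026103, chromosome 10, 88990582 to 89015785), the death receptor of the extrinsic pathway, was low in all groups. It had 0.927, 6.07 and 2.69 RPKM with the empty vector, 4.40, 1.36 and 0 RPKM in hPRM2 and 0.811, 0.924 and 1.16 RPKM in the libraries labelled hPRM1. All groups overlapped, and the hPRM2 values rest on at most 26.9 and 3.98 reads and, where 0 is listed, up to 3. The log2 fold change was -0.66 in hPRM2 (95% interval -2.54 to 1.22, adjusted p = 0.608 by limma) and -0.91 in the libraries labelled hPRM1 (95% interval -2.04 to 0.21, adjusted p = 0.113 by limma). Without empty vector replicate 1 the second was -1.38 and was called (adjusted p = 0.0128), and it was 0.39 under both other scalings.

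**Figure D3:**
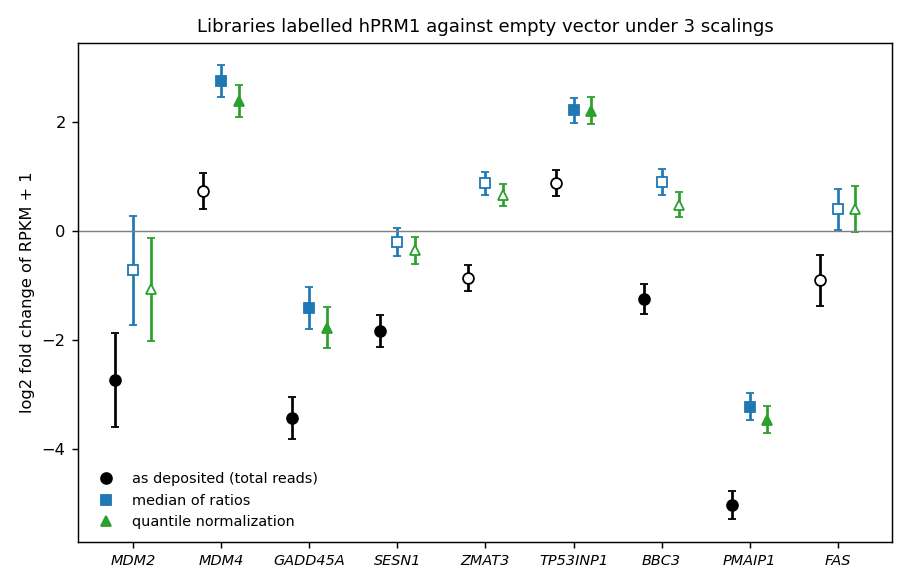
The plot shows the log2 fold change of RPKM + 1 of each p53 pathway gene in the libraries labelled hPRM1 against the empty vector, ± standard error from limma, in the deposited scaling (circles), after median-of-ratios scaling (squares) and after quantile normalization (triangles). Filled symbols were called. PMAIP1 and GADD45A stay below 0 and filled in all 3, MDM4 and TP53INP1 stay above 0 and are filled only after rescaling, and BBC3, ZMAT3 and FAS change sign.

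A direct comparison of the libraries labelled hPRM1 with hPRM2 used no empty vector library. PMAIP1 and GADD45A were lower in the libraries labelled hPRM1, and 6 genes were not called. TP53INP1 passed the filter on low values only through the libraries labelled hPRM1, where it is high, so its difference is a description and is not counted as a result. Of all 11756 tested genes, 53% were called, 37.0% lower and 16.0% higher. The libraries did not overlap for 3 genes that were lower, PMAIP1, GADD45A and SESN1 (background 43.1%). TP53INP1 lay apart on the higher side, as did 19.0% of all tested genes, which is part of that description. The log2 fold change of PMAIP1 was -4.31 (SE 0.39, adjusted p = 0.000367 by limma) and that of GADD45A -2.31 (SE 0.44, adjusted p = 0.00545 by limma). GADD45A lost its call after median-of-ratios scaling (-0.54), after quantile normalization (-1.16) and in the per-gene test (adjusted p = 0.0587). For TP53INP1 the log2 difference was 1.86 with a pseudocount of 1, 0.64 with 5 and 4.32 with 0.1. MDM4 and BBC3 were called higher under both other scalings, and ZMAT3 after median-of-ratios scaling. MDM2 was called lower without hPRM2 replicate 1 (-3.11, adjusted p = 0.0457). Without hPRM2 replicate 3, SESN1 was called lower (-2.58, adjusted p = 0.0202) and BBC3 higher (1.45, adjusted p = 0.0366).

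The other genes of the pathway were described from lists of 34 further p53 targets, 21 regulators and cofactors, and 5 paralogs of the 9 genes. In hPRM2, 30 of the 34 targets were tested and 1 was called, AEN, a nuclease that p53 induces in apoptosis. The empty vector had 62.4, 80.7 and 63.9 RPKM, and hPRM2 had 12.2, 11.8 and 12.6 RPKM, without overlap. Its log2 fold change was -2.40 (SE 0.37, adjusted p = 0.0320 by limma), and it was called lower against a background of 1.37%. The median of the 30 targets was -0.99, against -0.72 for all genes. CDKN1A, which encodes the cell cycle inhibitor p21, was at 38.8, 39.0 and 37.8 RPKM with the empty vector and at 77.7, 63.8 and 43.8 RPKM with hPRM2. All hPRM2 libraries were above the empty vector (background 6.01%), but the log2 fold change of 0.63 was not called (SE 0.37, adjusted p = 0.313 by limma). Most targets went the other way. Of the 34, 3 lay wholly above the empty vector and 13 wholly below (background 29.9%), and 22 of the 30 estimates were below 0. Limma gave 11 of the 30 an unadjusted p under 0.05, against 3351 of all 13126 tested genes. Of the 20 regulators tested 0 were called by limma or by the per-gene test, with a median of -0.79. In limma 5 of them had an unadjusted p under 0.05, against 3351 of all 13126 tested genes. The fit of all 9 libraries called 1 regulator higher and 3 lower, against 507 higher and 1618 lower of all 13126 genes. Without hPRM2 replicate 1 there were 5 regulators lower, against 1619 of all genes. RPL11, a ribosomal protein that restrains MDM2, had the highest fold change of these, with 397.5, 31.5 and 23.1 RPKM in hPRM2 against 9.002, 3.07 and 0.663 RPKM in the empty vector (log2 fold change 4.06, SE 1.19, adjusted p = 0.107 by limma). It passed the filter only with hPRM2, where it is high, so this is a description.

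Of the 5 paralogs, SESN2, a stress-induced sestrin, was called lower in hPRM2, against a background of 1.37%. Its level was 83.9, 117 and 118 RPKM with the empty vector and 19.9, 21.1 and 20.6 RPKM with hPRM2, without overlap, at a log2 fold change of -2.30 (SE 0.34, adjusted p = 0.0297 by limma). SESN3 was at -1.87 (adjusted p = 0.101), GADD45B at 0.06, GADD45G at -0.71 and TP53INP2 at -0.70, and these 4 were not called. Median-of-ratios scaling moved the median of all genes in hPRM2 to -0.25. Limma then called 0 of the targets and 0 of the paralogs, against 220 higher and 82 lower of all 13126 genes. At an unadjusted p under 0.05 there were 7 and 2, against 2201 of all 13126 genes. AEN and SESN2 also lost their calls in the per-gene test, with no filter, and without any 1 of the 3 empty vector replicates or hPRM2 replicate 2 or 3. When single libraries were left out, the limma adjusted p ran from 0.00933 to 0.162 for AEN and from 0.0104 to 0.153 for SESN2, lowest without hPRM2 replicate 1. Without that library, 2 of the 30 targets were called higher and 7 lower, against 810 higher and 1619 lower of all 13126 genes. The fit of all 9 libraries called 1 target higher and 7 lower, against 507 higher and 1618 lower of all genes.

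In the libraries labelled hPRM1, 20 of the 31 targets tested fell and 5 rose, near the background of 62.5% lower and 12.9% higher, with a median of -1.81 against -1.72 for all genes. The largest falls were in RPS27L (-6.02), TRIAP1 (-5.63) and CCNG1 (-4.75), a ribosomal protein paralog, an apoptosis inhibitor and cyclin G1. Ribosomal protein genes such as RPS27L and RPL11, and NPM1, have near copies in the genome that can share reads, so their levels are uncertain. RPS27L had 254, 388 and 191 RPKM with the empty vector and 3.09, 3.13 and 3.10 RPKM in the libraries labelled hPRM1. CDKN1A fell by 2.44 (SE 0.18, adjusted p = 3.05e-05 by limma), with 6.45, 6.77 and 5.65 RPKM. The largest rises were in CD82 (4.20), TRIM22 (2.06) and SUSD6 (1.85), and CD82, a tetraspanin of leukocytes and other cells, had 35.3, 56.0 and 51.0 RPKM against 0.557, 3.04 and 1.74 RPKM. Of the 20 regulators tested, 13 fell, near the same background, and 0 rose, with a median of -2.21. CDKN2A (-7.91), whose product p14ARF restrains MDM2, NPM1 (-5.86), a nucleolar protein, and CHEK1 (-5.21), a checkpoint kinase, fell most. CDKN2A had 545, 589 and 769 RPKM with the empty vector and 0.762, 3.24 and 1.38 RPKM in the libraries labelled hPRM1. CD82 and TRIM22 passed the filter on low values only with the libraries labelled hPRM1, where they are high. CDKN2A and CHEK1 passed it only with the empty vector, where they are high. The differences of these genes are therefore descriptions, and the counts and the background shares rest on the same filter. SESN2 (-3.76) and SESN3 (-2.12) fell as well, and GADD45B, GADD45G and TP53INP2 were between -0.47 and -0.37 and were not called. The balance moved with the scaling. After median-of-ratios scaling 11 targets were higher and 12 lower, 5 regulators were higher and 8 lower, and 2 paralogs were higher and 1 lower, where 28.8% of all genes were higher and 28.9% lower.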

How the data were processed

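RNA was measured in 9 libraries described by the authors as HEK293T cells, 3 per group, grouped by the labels. The authors processed the reads with nf-core/rnaseq (FastQC, Cutadapt, STAR and Salmon on hg38, per the labels, versions not given in the sources used here), removed mitochondrial genes, and divided each count by the library total and the gene length. They deposited these RPKM values for 57338 genes, unpooled, without counts or fold changes. Columns left unused numbered 0. Reads on genes were estimated from steps of low values of single-transcript genes in GENCODE 29 (600 to 20000 bases, 250 subtracted). A gene's reads are given as at most RPKM times these reads times its longest transcript, and 0 is read as up to 3 reads. These limits cover counting error only.

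Values were compared as log2(RPKM + 1), which understates changes of low genes, in R 4.3.3 with limma 3.58.1 (trend and robust). The 6 libraries of each comparison were fitted without a replicate block, for genes that reached an RPKM of 1 in 3 or more of them, with Benjamini-Hochberg adjustment over all genes tested. Calls needed an adjusted p up to 0.05 and a change of 2-fold or more. The code was tested on simulated data. The 9 genes, PRM1, PRM2 and marker lists are named, as are the paralogs and, for the longer lists, the called genes with the 3 largest rises and falls. CDKN1A and RPL11 in hPRM2, and CDKN1A in the libraries labelled hPRM1, were named after their values were seen. The members and lists were chosen with earlier results of these data known. Other settings tried were a pseudocount of 0.1 or 5, a filter of 5 RPKM or none, rescaling by the median of ratios or by quantiles, fitting the 9 libraries together, blocking on replicate number, omitting each library, dropping the fold threshold, and a per-gene test with unequal variances on log2 values, a reading of the study's per-gene test, whose variances and scale are not given in the sources used here. Python 3.11.15, pandas 2.3.3 and numpy 2.4.6 served for the remaining values and matplotlib 3.10.9 for the plots. The transcript of p53 itself is not reported here.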

Additional observations from a re-analysis of the deposited data

How the results depend on the processing

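Of the fold changes of single p53 pathway genes under the alternatives, 349 kept their direction and their side of the threshold, 21 gained a call, 14 lost one and 22 changed sign. The filters, the fold threshold, the replicate block, the fit of all 9 libraries and the per-gene test leave the fold change as it is. Under these settings a call could change but not a direction, so the 349 overstate how steady the directions were. For hPRM2 against the empty vector (179 genes called higher and 180 lower), 101 genes were lower with a pseudocount of 5, and 96 with a minimum of 5 RPKM. With no filter 72 were higher and 17 lower, after median-of-ratios scaling 82 were lower, and after quantile normalization 342 were higher and 70 lower. The fit of all 9 libraries gave 507 higher and 1618 lower, with 1 p53 pathway gene (BBC3) among them, and the per-gene test 0 and 0. Leaving out each replicate in turn gave 10 to 810 higher and 2 to 1619 lower genes, the largest without hPRM2 replicate 1, and 0 to 1 p53 pathway genes lower. SESN1 turned to 0.089 with a pseudocount of 5, to 0.44 after median-of-ratios scaling and to 0.54 after quantile normalization, where FAS was at 0.22 and ZMAT3 at 0.20. Without single replicates SESN1 ran from -0.83 to 0.74 and MDM2 from -2.37 to 0.37. None of these reversed values was called. Same-numbered libraries of different groups did not deviate together (correlations of -0.0783 to 0.0795). No pairing by number was seen, but 3 libraries per group cannot exclude it. A replicate block gave 49 higher and 8 lower genes for hPRM2 and changed no call of the 9 genes in the 3 comparisons, but AEN (adjusted p = 0.119) and SESN2 (adjusted p = 0.114) lost theirs in hPRM2.

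For the libraries labelled hPRM1 against the empty vector (1750 genes higher and 8491 lower), 1152 were higher with a pseudocount of 5 and 1147 with a minimum of 5 RPKM. Median-of-ratios scaling gave 3919 higher and 3925 lower, and quantile normalization 3475 and 4388, each with 2 p53 pathway genes higher and 2 lower. FAS, BBC3 and ZMAT3 turned to 0.39, 0.90 and 0.87 under the first and to 0.39, 0.48 and 0.66 under the second. TP53INP1 made 1 p53 pathway gene called higher with a pseudocount of 0.1 and without the fold threshold, and 3 were lower in the per-gene test. Without single replicates 0 to 1 p53 pathway genes were higher. The calls of TP53INP1 are descriptions in this comparison and the next, and the counts of p53 pathway genes called higher include them. For the libraries labelled hPRM1 against hPRM2, 0 p53 pathway genes were higher with a pseudocount of 5 or a minimum of 5 RPKM, where 1230 genes were higher in all. Median-of-ratios scaling gave 3662 higher and 2148 lower genes, with 4 p53 pathway genes higher and 1 lower, and FAS at 0.70, MDM2 at 0.053 and ZMAT3 at 1.27, of which ZMAT3 was called. Quantile normalization gave 2897 higher, with 3 p53 pathway genes higher and 1 lower, and ZMAT3 at 0.52. The per-gene test gave 1098 higher and 2388 lower, with 1 p53 pathway gene lower. FAS was at 0.28 with a pseudocount of 0.1. Without single replicates FAS ran from -0.87 to 0.35, ZMAT3 from -0.38 to 0.011 and the p53 pathway genes called higher from 1 to 2. The cause of these changes was not tested. With 3 libraries per group and 1270000 to 2650000 reads in hPRM2, differences of the size seen for MDM4, GADD45A or PMAIP1 could not be told from 0 there.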

Other observations

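For 6 of the p53 pathway genes, the gene with the most similar profile is given over the 6 libraries of the empty vector and hPRM2, by Pearson's r of log2(RPKM + 1). The 14207 genes compared share libraries and depth, and 6 libraries leave room for high values, so these are descriptions without a test. BBC3 was closest to TMEM39B (r = 0.998), ZMAT3 to REV3L (r = 0.998), PMAIP1 to GREB1L (r = 0.997) and MDM4 to AGAP9 (r = 0.995). MDM2 was closest to LINC01896 and SESN1 to ASB7, both with r = 0.992. None of these genes belonged to the lists of the p53 pathway.

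PLK3, a stress-responsive kinase and p53 target, was the highest of the p53 targets in hPRM2 relative to the empty vector, though it was not called and was singled out after its values were seen. It had 2.61, 6.54 and 2.62 RPKM with the empty vector and 7.38, 129 and 122 RPKM in hPRM2. All 3 hPRM2 libraries lay above the controls, as for 6.01% of all tested genes, with replicate 1 far below replicates 2 and 3. Its log2 fold change was 3.47 (SE 1.10, adjusted p = 0.123 by limma).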
